A study of Homo sapiens with 5 samples.

Results

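YAP1 and TAZ, the product of WWTR1, were followed at the RNA level together with TEAD1, their DNA-binding partner, and with 7 genes known as their targets or feedback partners: CCN1, CCN2, ANKRD1, AMOTL1, AMOTL2, AXL and LATS2. These 10 genes were chosen by name, with earlier results of these data known. All 10 were measured, each by 1 probe, among 17651 genes that both deposited tables hold. RNA came from cultures of MCF12A, an immortal human mammary epithelial cell line that does not form tumours. All groups shared a medium with horse serum, insulin, cholera toxin, hydrocortisone and epidermal growth factor. Per the labels, 1 culture had 4 weeks in 2.5% ethanol, 1 had 4 weeks in 1% acetaldehyde, to which cells oxidise ethanol, and 1 was an untreated control. A further pair held a clone selected for growth in soft agar, also labelled with 4 weeks of ethanol, and its own control. That control is labelled as not exposed but also as selected on soft agar, and the ethanol of the clone is 2.5% in one label and 2.5 mM in the series text. It is 1 clone, so what belongs to the clone and what belongs to ethanol or to selection cannot be told apart.

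YAP1 and TAZ are transcriptional co-activators without a DNA-binding domain of their own. When the Hippo kinases MST1 and MST2 (STK4 and STK3) and LATS1 and LATS2 are active, YAP1 and TAZ are phosphorylated, kept in the cytoplasm and degraded. When the kinases are less active, as in spread cells or cells with tense actin fibres, YAP1 and TAZ enter the nucleus, bind TEAD factors and raise target genes. The pathway is therefore switched mainly at the protein level. These arrays measure RNA, so the place and phosphorylation of the proteins are not seen here.

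TEAD factors bind the letters GGAATG, on either strand, and such matches in the promoters of the 10 genes are shown here because TEAD binding at such letters is the known route from YAP1 and TAZ to a gene. RefSeq sequences (GRCh38.p14) from 250 bases before to 50 bases after the gene start were given for 8 of the 10 genes, not for CCN1 and TEAD1. A match lay in a window of 6 of these 8 genes, CCN2, ANKRD1, AMOTL2, AXL, YAP1 and LATS2, against 16.7% of 27305 genes. CCN2 had 3 matches, and 0.128% of all 35116 windows had 3 or more. ANKRD1 had 2, and 1.37% of windows had 2 or more. The 250 bases before the start of CCN2 (chr6:131951373-131951622, minus strand) and of ANKRD1 (chr10:90921088-90921337, minus strand) are printed whole, with the matches in capitals, since these genes carry the most matches, and one stood furthest above control while the other lay under the floor of the arrays.

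CCN2: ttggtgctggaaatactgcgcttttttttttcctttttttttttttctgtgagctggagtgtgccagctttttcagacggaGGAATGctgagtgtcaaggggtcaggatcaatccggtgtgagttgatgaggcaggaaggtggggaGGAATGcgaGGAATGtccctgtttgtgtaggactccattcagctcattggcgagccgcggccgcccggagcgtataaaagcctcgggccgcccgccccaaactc
ANKRD1: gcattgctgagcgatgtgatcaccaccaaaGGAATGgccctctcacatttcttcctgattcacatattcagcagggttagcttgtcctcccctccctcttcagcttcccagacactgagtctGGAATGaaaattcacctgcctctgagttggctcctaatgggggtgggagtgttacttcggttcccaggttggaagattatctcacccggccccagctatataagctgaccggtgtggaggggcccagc

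The CCN2 matches begin 169, 104 and 95 bases before the start, and those of ANKRD1 220 and 128 bases before it. The single matches of the other genes are shown as short stretches, capitals again marking GGAATG or its reverse complement CATTCC.

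AMOTL2 (chr3:134374503-134374524, minus strand): aactctcaCATTCCtggcatag
AXL (chr19:41226535-41226556, plus strand): ctttgcacCATTCCactccctc
YAP1 (chr11:102110277-102110298, plus strand): agtgtgcaGGAATGtagcaact
LATS2 (chr13:21061564-21061585, minus strand): acgcccgtGGAATGccaacaat

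AMOTL2 and AXL each have a pair of start sites in the table, and the match lies in the window of only one of them. The LATS2 match begins 10 bases into the transcript. The AP-1 motif TGANTCA, bound by the JUN and FOS factors that often sit beside TEAD, was found in 1 of the 8 genes, ANKRD1, 195 bases before its start and clear of both GGAATG matches, against 9.37% of all genes. A match of letters is a description and not a measured binding site.

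Values are RMA intensities on a linear scale, and only values of 1 table are compared. A floor was set at the median of each table, 70.2 for the exposure arrays and 92.0 for the clone arrays. A gene was counted where the brighter array reached the floor and called where its deposited values stood at least 2-fold apart. Where the dimmer array lay under the floor, the floor took its place and the fold is a lower bound, and calls whose fold falls under 2 that way are named. With 1 array per group no difference has a replicate check and no test was possible, so a difference may be no larger than the spread between cultures of 1 group. The number of arrays limits the precision. Array medians lay between 69.98 and 70.61 in the exposure table and were 89.9 for the clone and 94.0 for its control. Of the genes past the floor, 30.7% had equal values in ethanol and control and 37.9% in acetaldehyde and control, to within 1e-06 on the log2 scale, while the clone and its control were equal in 0.196%. The labels do not say where these equal values come from, and a difference of 0 in the exposure table is therefore not a measure of how alike cultures are.

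**Figure D1:**
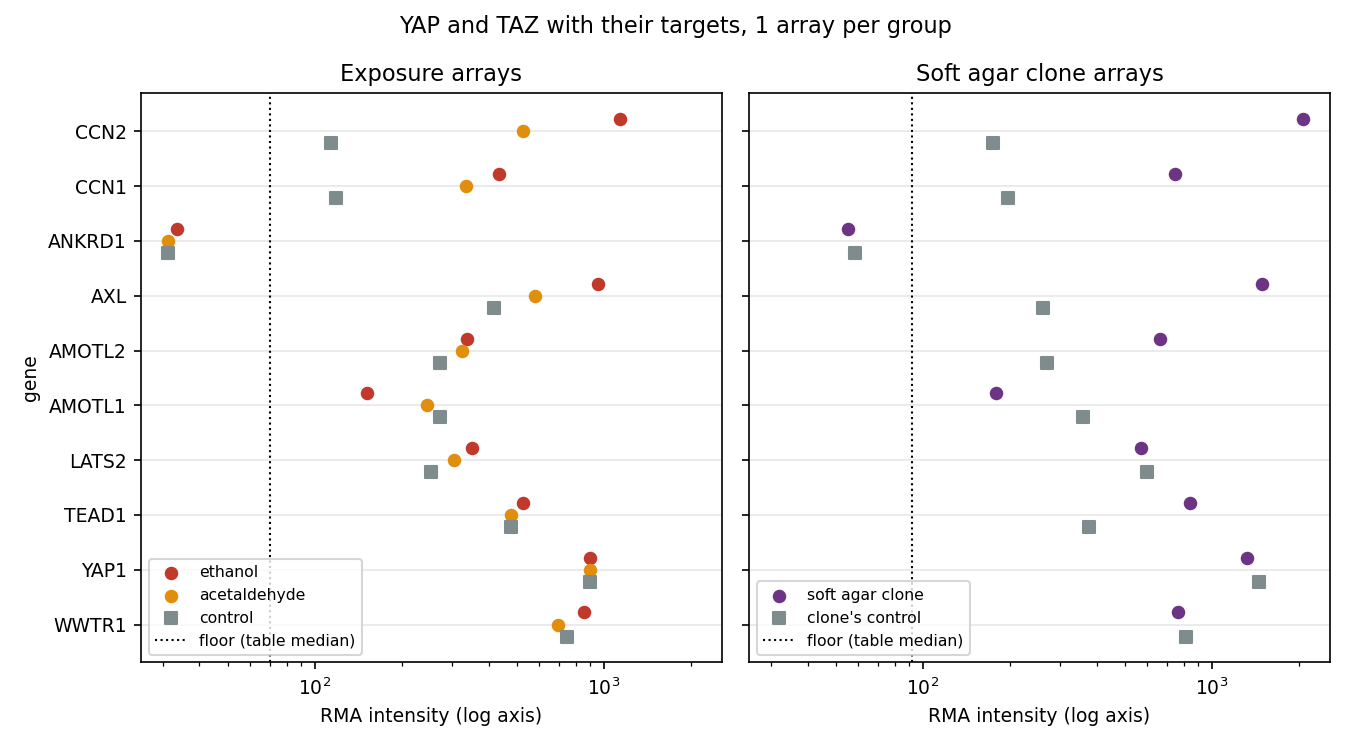
RMA intensity (log axis) of the 10 genes on each array, exposure arrays on the left and clone arrays on the right, 1 point per array, dotted line at the floor. CCN2 and CCN1 stand well to the right of control in all 3 exposed cultures, ANKRD1 lies left of the floor throughout, and YAP1 and WWTR1 stay close to control. On the exposure arrays YAP1 is one of the equal values, which are not a measure of how alike the cultures are.

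The first question was whether the levels of YAP1 and TAZ themselves differ. YAP1 had an intensity of 897 on the ethanol, acetaldehyde and control arrays alike, one of the equal values described above. In the clone it had 1321, against 1464 in the clone's control, a log2 difference of -0.15. WWTR1 had 853 in ethanol and 695 in acetaldehyde, against 747 in control, or log2 differences of 0.19 and -0.10. It had 764 in the clone and 814 in the clone's control, a difference of -0.09. None of these is near 2-fold. In the clone table the median over all probes was -0.17, and relative to it YAP1 stood at 0.02 and WWTR1 at 0.07, so neither has a settled direction there.

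TEAD1, which carries YAP1 and TAZ to DNA, had an intensity of 528 in ethanol and the equal value of 477 in acetaldehyde and in control. It was 2.25-fold higher in the clone, at 845 against 376 in the clone's control. The other TEAD genes did not follow: in the clone the log2 differences of TEAD2, TEAD3 and TEAD4 were -0.06, -0.32 and -0.26, genes named here for their role after their values were seen.

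CCN2 stood furthest above control of the members in all 3 comparisons, and CCN1 was past 2-fold in each as well. Both encode secreted matricellular proteins that bind integrins and are the most used readouts of YAP and TAZ activity. CCN2 had an intensity of 1143 in ethanol and 527 in acetaldehyde, against 114 in control, so that it was 10.02-fold and 4.62-fold higher. In the clone it had 2078, against 175 in the clone's control, 11.9-fold higher. Among all genes past the floor it ranked 16 of 11264 from the highest in ethanol, 21 of 11194 in acetaldehyde and 52 of 12262 in the clone.

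CCN1 had an intensity of 435 in ethanol and 335 in acetaldehyde, against 118 in control. In the clone it had 750, against 198 in the clone's control. It was 3.67-fold higher in ethanol, 2.83-fold in acetaldehyde and 3.79-fold in the clone, a narrower range of folds than for CCN2. CCN1 ranked 96, 63 and 461 in the same 3 comparisons. The exposures share 1 control array, whose low CCN1 and CCN2 values enter both differences, and their doses differ, so the ethanol and acetaldehyde values are given side by side only. The clone and its control share no array with them.

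ANKRD1, a nuclear ankyrin repeat protein of muscle and another common readout of YAP activity, was under the floor on all 5 arrays. It had an intensity of 33.5 in ethanol and 31.0 in acetaldehyde, against 31.0 in control. It had 55.1 in the clone, against 58.5 in the clone's control. It was not counted, and at such intensities a difference was not detectable here. CCN2 thus stood far above control and ANKRD1 under the floor, although both windows printed above hold more than 1 GGAATG match.

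AXL, a receptor tyrosine kinase for the ligand GAS6, had an intensity of 959 in ethanol and 579 in acetaldehyde, against 419 in control. It had 1496 in the clone, against 261 in the clone's control. It was past 2-fold in ethanol, at 2.29-fold higher, and in the clone, at 5.74-fold higher, but not in acetaldehyde, where the log2 difference was 0.47. It ranked 222, 318 and 190 from the highest in ethanol, acetaldehyde and the clone. The difference between the acetaldehyde and ethanol responses was not tested.

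The feedback genes were divided. AMOTL1 and AMOTL2 encode angiomotin-like proteins of tight junctions and actin that hold YAP1 and TAZ in the cytoplasm. AMOTL2 had an intensity of 338 in ethanol and 324 in acetaldehyde, against 271 in control, log2 differences of 0.32 and 0.26. It was 2.46-fold higher in the clone, at 663 against 270 in the clone's control.

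AMOTL1 was the one member lower in all 3 exposed cultures. It had 151 in ethanol and 245 in acetaldehyde, against 272 in control, log2 differences of -0.84 and -0.15. In the clone it had 179, against 360 in the clone's control, 2.01-fold lower. That last value lies just past the threshold. It is -0.84 when the clone differences are centred on the median of all probes, -0.99 with a lowess correction for brightness and -0.90 with a pseudocount of 32, none of which reaches 2-fold.

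LATS2, the kinase that phosphorylates YAP1 and TAZ and is itself one of their targets, had an intensity of 351 in ethanol and 305 in acetaldehyde, against 253 in control. Its log2 differences there were 0.47 and 0.27. In the clone it had 568, against 597 in the clone's control, a difference of -0.07, or 0.09 relative to the median of all probes. LATS2 did not share the higher values of CCN2, CCN1 and AXL in the clone.

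**Figure D2:**
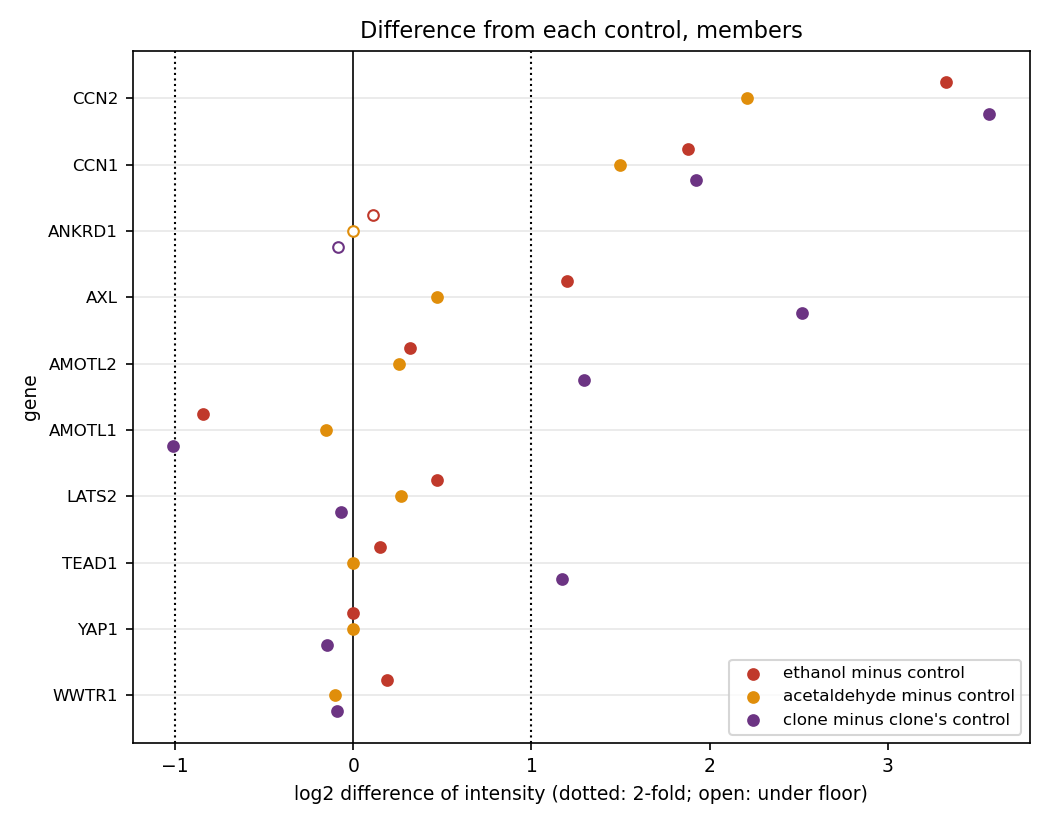
Log2 difference from control for each of the 10 genes, ethanol, acetaldehyde and clone, with dotted lines at 2-fold and open points for ANKRD1, which was under the floor. CCN2 and CCN1 lie past 2-fold in all 3 comparisons, AXL in ethanol and the clone, and AMOTL2 and TEAD1 upward and AMOTL1 downward in the clone alone among the 3.

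Counted together, 9 of the 10 genes passed the floor in each comparison, all 9 of them on both arrays. None was thus counted only because it was high in 1 group. The set was chosen with earlier results of these data known, so the shares set beside its counts are descriptions only. In ethanol 3 of 9 were at least 2-fold higher, CCN2, CCN1 and AXL, against 2.63% of all 11264 genes. In acetaldehyde 2 of 9 were higher, CCN2 and CCN1, against 1.03% of 11194 genes. In the clone 5 of 9 were higher, CCN2, AXL, CCN1, AMOTL2 and TEAD1, against 14.7% of 12262 genes. Lower by 2-fold were 0 of 9 in ethanol, 0 of 9 in acetaldehyde and 1 of 9 in the clone, AMOTL1, against 2.46%, 0.0536% and 5.84% of all genes. The median log2 difference of the 9 was 0.32 in ethanol and 0.26 in acetaldehyde, where that of all genes was 0, and 1.17 in the clone, where that of all genes was -0.02. With differences centred on the median of all probes the clone median of the 9 was 1.34.

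The ethanol and clone comparisons rest on separate arrays. Leaving out YAP1, which was equal in ethanol and control, 6 of 8 members lay on the same side of 0 in both, against 64.8% of 7311 genes. The exceptions were LATS2 and WWTR1, whose clone differences were -0.07 and -0.09. With the clone centred on the median of all probes the count was 8 of 8, against 64.4% of all genes. It was higher only because LATS2 and WWTR1 then stood at 0.09 and 0.07 in the clone. Neither gene has a settled direction there, so 8 of 8 does not show that all members share a direction. Neither count was tested against the share of all genes.

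**Figure D3:**
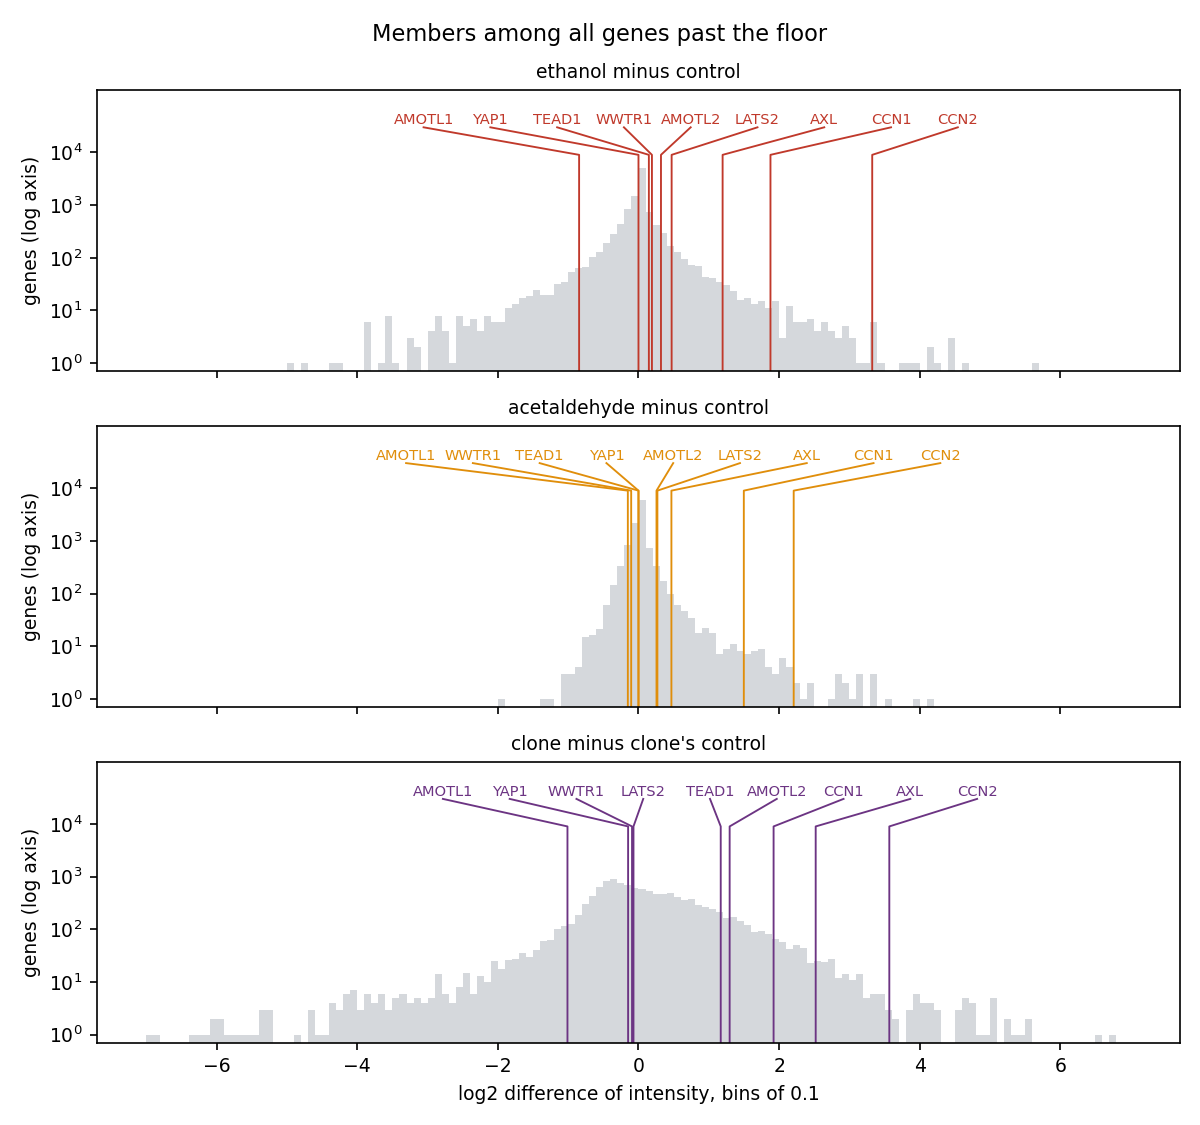
Number of genes (log axis) by log2 difference for all genes past the floor, ethanol, acetaldehyde and clone from top to bottom, with a line for each member that passed the floor. CCN2 and CCN1 lie far out in the upper tail of the exposure comparisons, while the clone distribution is wider, so that its TEAD1 and AMOTL2 differences of 1.17 and 1.30 fall among many other genes.

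Genes with the pattern nearest to CCN2 were sought over the 3 log2 differences of 10444 genes past the floor in every comparison. The nearest 5 by Euclidean distance were EDIL3, IL1R1, MMP2, AOX1 and TMT1A, at distances of 0.11, 0.44, 0.60, 0.74 and 0.77. EDIL3, which encodes a secreted integrin-binding protein, had log2 differences of 3.23 in ethanol, 2.22 in acetaldehyde and 3.63 in the clone. IL1R1, the interleukin-1 receptor gene, had 3.02, 2.47 and 3.39, and MMP2, a gelatinase gene, had 2.76, 2.06 and 3.43. Only 3 differences from 5 arrays, with 1 control shared, enter this measure.

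A published score of YAP and TAZ targets also contains 16 further genes, and all 16 passed the floor. This list too was chosen with earlier results of these data known. Some genes passed only through the higher array: CCDC80 in both exposures, and TGFB2, RBMS3, F3 and DOCK5 in the clone. The counts below therefore rest in part on the differences they count. In ethanol 4 of 16 were at least 2-fold higher, against 2.63% of all genes, and 0 lower, against 2.46%, and the median over the 16 was 0.26 on the log2 scale. In acetaldehyde 4 of 16 were higher, against 1.03%, and 0 lower, against 0.0536%, the median was 0.04, and these 4, TGFB2, RBMS3, IGFBP3 and CCDC80, were those of ethanol. In the clone 10 of 16 were higher in the deposited values, against 14.7% of all genes, 2 were lower, against 5.84%, and the median was 1.34. Of the 10, F3 and DOCK5 had control values under the floor and were only at least 1.90-fold and at least 1.87-fold higher, so 8 were past 2-fold against the floor.

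TGFB2, a ligand of the TGF-beta family, had an intensity of 1793 in ethanol and 661 in acetaldehyde, against 92.5 in control, and 1329 in the clone, against 38.9 in its control. RBMS3, an RNA-binding protein gene, had 509 in ethanol and 255 in acetaldehyde, against 80.4 in control, and 810 in the clone, against 43.0 in its control. Since both clone control values lay under the floor, TGFB2 and RBMS3 were at least 14.5-fold and at least 8.80-fold higher in the clone. TGFB2 was 19.4-fold higher in ethanol and 7.15-fold higher in acetaldehyde, wider than the differences of CCN2, whereas RBMS3, at 6.34-fold and 3.18-fold, was between CCN2 and CCN1.

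IGFBP3, which encodes a carrier of insulin-like growth factors, had 536 in ethanol and 323 in acetaldehyde, against 119 in control, and was 5.05-fold higher in the clone. CCDC80, a secreted matrix protein gene, was the only one of the 4 with a larger difference in acetaldehyde than in ethanol. It had 237 in ethanol and 255 in acetaldehyde, against 59.0 in control, which is under the floor, so the folds were at least 3.37 and at least 3.64. It was 5.20-fold higher in the clone.

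In the clone ASAP1, a regulator of ARF GTPases at focal adhesions, was 5.97-fold higher, at 3887 against 651 in the clone's control, but had log2 differences of 0.53 in ethanol and 0.20 in acetaldehyde. The 2 targets that were lower in the clone were NUAK2, a kinase of the AMPK family, and GADD45A, a stress gene. NUAK2 had 136 in the clone, against 343 in its control, and GADD45A had 366, against 897. In ethanol the log2 difference was 0.00 for both, and NUAK2 was equal on all 3 exposure arrays.

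**Figure D4:**
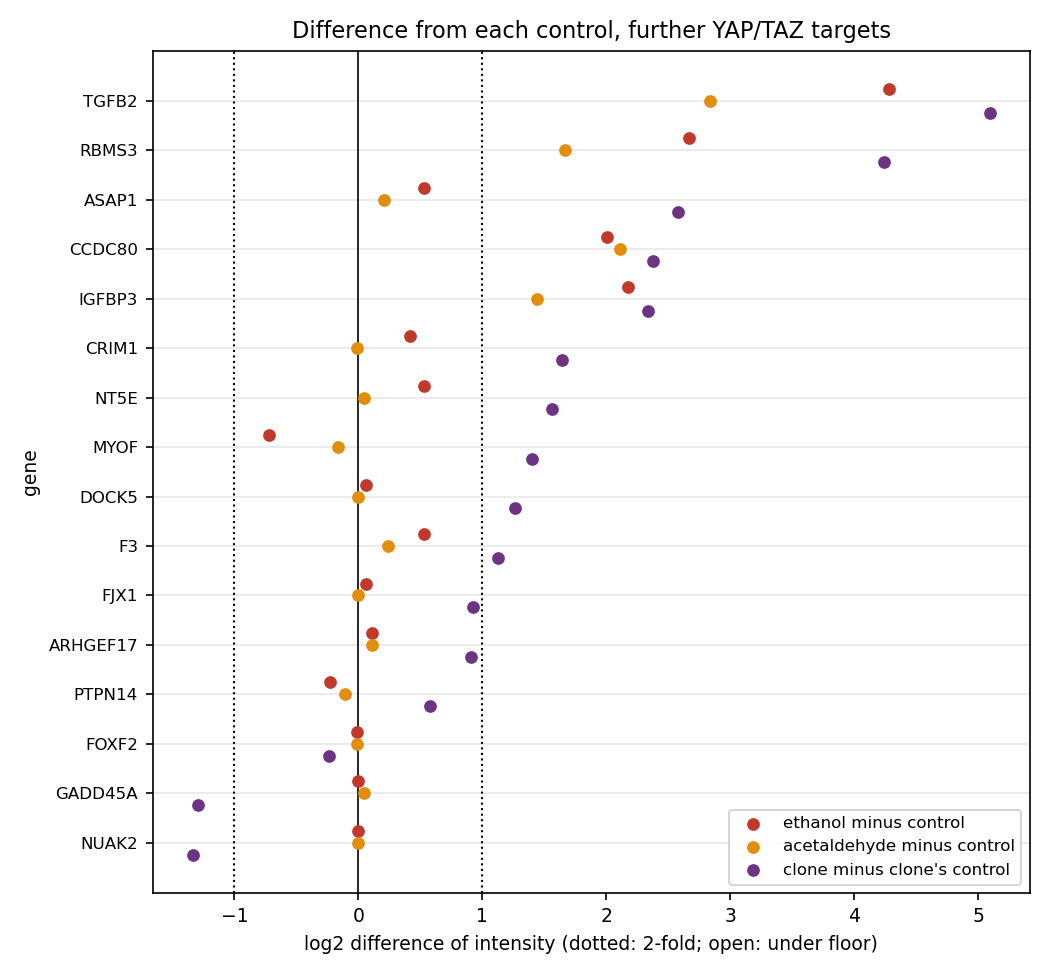
Log2 difference from control of the 16 further YAP and TAZ targets in ethanol, acetaldehyde and the clone, ordered by the clone, with dotted lines at 2-fold. TGFB2, RBMS3, CCDC80 and IGFBP3 lie past 2-fold in all 3, and 6 more genes are past the dotted line upward in the clone alone among the 3, of which F3 and DOCK5 rest on control values under the floor.

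The Hippo regulators upstream of YAP1 and TAZ were then examined, of which 31 of 33 listed genes were measured in the exposure table and 32 in the clone table. In ethanol 1 of 29 past the floor was called higher, FAT4, and 1 lower, PATJ, against 2.63% and 2.46% of all genes. In acetaldehyde 1 of 29 was called higher, FAT4 again, and 0 lower, against 1.03% and 0.0536%, and both medians were 0. Of the 29, 4 in ethanol and 11 in acetaldehyde had values equal to control, against 30.7% and 37.9% of all genes. These medians are therefore not a measure of how alike the cultures are. The FAT4 control value was under the floor, so FAT4 was counted only because it was higher in the exposed cultures. Against the floor 0 of 29 were 2-fold higher in either exposure. In the clone 9 of 30 were called higher, against 14.7% of all genes, and 2 lower, against 5.84%. The share of lower genes is close to that of all genes. WWC2 was among the 9 but only at least 1.89-fold higher against the floor, which leaves 8. Like WWC2, FAT4 and BTRC among these 8 passed the floor only through the clone array. The median log2 difference was 0.53, or 0.69 relative to the median of all probes.

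FAT4, a giant cadherin linked to Hippo signalling, had an intensity of 117 in ethanol and 85.9 in acetaldehyde, against 25.4 in control, which is under the floor, so the folds were at least 1.66 and at least 1.22. In the clone it had 635, against 36.9 in its control, at least 6.90-fold higher. PATJ, a scaffold of the Crumbs polarity complex, had 147 in ethanol and 365 in acetaldehyde, against 419 in control. It had 173 in the clone, against 441 in the clone's control, so that it was 2.85-fold lower in ethanol and 2.55-fold lower in the clone.

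The other regulators furthest from control in the clone were DLG5, BTRC and MAP4K4 upward and LLGL2 downward. DLG5, a membrane scaffold, was 9.15-fold higher, at 2824 against 309 in the clone's control. BTRC, the ubiquitin ligase subunit that marks YAP1 and TAZ for degradation, was at least 2.46-fold higher. MAP4K4, a kinase that acts on LATS1 and LATS2, was 2.46-fold higher, and the polarity gene LLGL2 was 2.14-fold lower. Relative to the median of all probes LLGL2 stood at -0.93 on the log2 scale, short of 2-fold. Of the core kinases, named for their role after their values were seen, none reached 2-fold in the deposited values. LATS1, STK3 and STK4 had log2 differences of 0.56, -0.55 and 0.94 in the clone and of 0.05, 0.00 and -0.07 in ethanol. Relative to the median of all probes STK4 stood at 1.10 in the clone, which is past 2-fold.

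Other TEAD and VGLL genes were measured as well, and 5 of 7 passed the floor. VGLL3, a cofactor that binds TEAD factors in place of YAP1 and TAZ, had an intensity of 494 in ethanol and 635 in acetaldehyde, against 298 in control, and 1108 in the clone, against 260 in its control. It was 2.13-fold higher in acetaldehyde and 4.26-fold higher in the clone, with a log2 difference of 0.73 in ethanol. No other of the 5 reached 2-fold in any of the 3 comparisons.

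**Figure D5:**
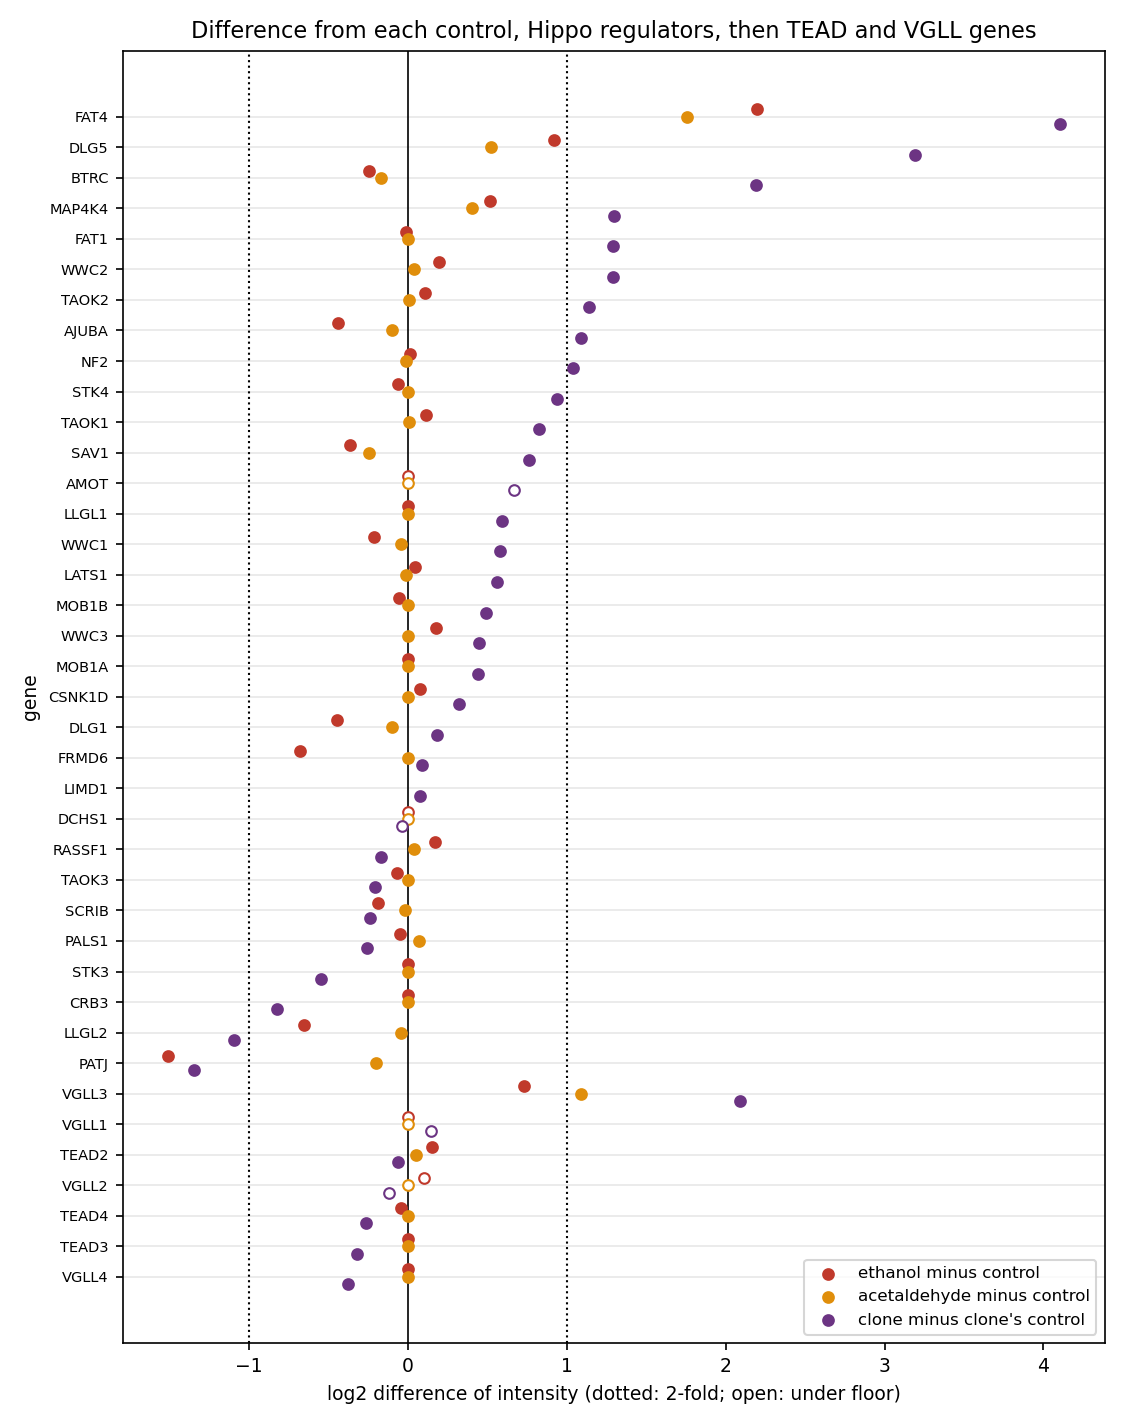
Log2 difference from control of the Hippo regulators and, in the lowest rows, the other TEAD and VGLL genes, with open points for genes under the floor and dotted lines at 2-fold. Past a dotted line in an exposure are PATJ, VGLL3 and FAT4, the last only against a control value under the floor. The clone differences spread from -1.35 for PATJ to 4.11 for FAT4. The clone control value of FAT4 was under the floor as well, so its fold there is at least 6.90.

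Markers of cell types were set beside these values. Of 8 epithelial markers 6 were measured, and their summed intensity was 8009 in ethanol and 11709 in acetaldehyde, against 10851 in control, and 9948 in the clone, against 22700 in its control. CDH1, which encodes E-cadherin, had 117 in ethanol and 1262 in acetaldehyde, against 1114 in control, and 43.6 in the clone, against 920 in its control. Of the 6 epithelial markers, 3 were at least 2-fold lower in ethanol, against 2.46% of all genes, and 1 higher, against 2.63%. In the clone 4 of 6 were lower, against 5.84%, and 0 higher, against 14.7%. EPCAM had 85.3 in ethanol, against 613 in control, and 33.9 in the clone, under the floor, against 411 in its control. KRT14 had 105 in ethanol, against 607 in control, and 202 in the clone, against 3267 in its control. In acetaldehyde KRT14 had 794 and EPCAM 479. KRT5 was 3.11-fold lower in the clone. KRT8 and KRT18 did not follow. KRT8 had 3068 in ethanol and 2027 in acetaldehyde, against 1474 in control, and 3921 in the clone, against 3765 in its control. KRT18 had 1004 in ethanol and 951 in acetaldehyde, against 986 in control. Low CDH1 values stood beside high CCN2 values in ethanol and the clone but not in acetaldehyde. The summed intensity of 6 fibroblast markers was 484 in ethanol and 486 in acetaldehyde, against 411 in control, and 1581 in the clone, against 675 in its control. That of 5 adipocyte markers was 5168 in ethanol and 890 in acetaldehyde, against 367 in control, and 5856 in the clone, against 894 in its control. Most of the ethanol sum came from CD36 at 2648 and FABP4 at 2163. PPARG had 202 in ethanol, against 75.5 in control, and was 2.68-fold higher. PLIN1 had 122 in ethanol, against 92.3 in control, and ADIPOQ had 32.4 on each exposure array. ADIPOQ, LUM and PDGFRA were under the floor on all 5 arrays. Of 4 endothelial markers PECAM1, VWF and CDH5, and of 3 measured leukocyte markers PTPRC and CD3E, were under the floor on all 5 arrays, and no marker was at 0. Summed endothelial values were 171 in ethanol and 160 in acetaldehyde, against 160 in control, and 424 in the clone, against 232 in its control, where KDR had 275 and 69.3. Summed leukocyte values were 140 on each exposure array, and 191 in the clone, against 203 in its control. Whether more cells with a given RNA or more of that RNA per cell gave a higher value cannot be told apart in such bulk RNA, and the part of these markers in the CCN2 and CCN1 values was not tested.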

How the data were processed

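Each deposited value is a linear-scale intensity that the authors made with RMA, per the submitters' processing notes, its version not given in the sources used here. They came as a table of 3 exposure arrays and a table of 2 clone arrays, of different array designs, treated as normalised separately. Probes with exactly 1 symbol were used (19181 and 19460 of 33297), and a gene with several probes was taken from the brightest by table mean. All 10 members matched RefSeq gene records, and 0 per-sample columns were left unused. Log2 differences were taken within a table with pandas 2.3.3 and numpy 2.4.6, and lowess used statsmodels 0.14.6.

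Named genes were the 10 members, the genes past 2-fold in 3 pathway lists (at most 4 each way per comparison), and the 5 nearest to CCN2. Genes outside that rule are said to be so, or are fixed markers. The members and lists were chosen with earlier results of these data known. Alternatives covered the floor, the fold, centring, quantile and lowess normalisation, the mean of probes, a pseudocount and raising dim values to the floor. The calculations were tested on simulated data.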

Additional observations from a re-analysis of the deposited data

Results flagged for a closer look

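MYOF, a membrane repair gene of the further YAP and TAZ targets, lay on opposite sides of control in the ethanol culture and in the clone, and was singled out for this after its values were seen. Its log2 difference was -0.72 in ethanol, at an intensity of 1223 against 2015 in control, and 1.40 in the clone, at 2335 against 882 in the clone's control. With 1 array per group the difference between the comparisons was not tested, and the array design, the control and soft agar selection differ along with the clone.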

How the results depend on the processing

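Across 219 recomputed differences of the 10 genes, each lay within 1.5-fold of the value reported. Many of these could not move. Each member has 1 probe, and each counted member was past the floor on both arrays. Changing the floor, the mean of probes and raising dim values therefore left these differences as they were. Centring left the exposure differences unchanged too, since their median over all probes was 0. CCN2 ranged from 3.01 to 3.33 on the log2 scale in ethanol, 1.94 to 2.21 in acetaldehyde and 3.35 to 3.73 in the clone. The clone median of the 10 genes was 0.55 with no floor, since ANKRD1 then counts. At 3-fold, members past the threshold numbered 1 in acetaldehyde and 3 in the clone, further targets 6 in the clone, Hippo regulators 1 in ethanol and 3 in the clone, and TEAD and VGLL genes 0 in acetaldehyde. At 1.5-fold, Hippo regulators numbered 5 in ethanol and TEAD and VGLL genes 1. Hippo regulators numbered 1 in ethanol and 0 in acetaldehyde with the floor at the 75th percentile, and the same, 1 and 0, when values under the floor were set to it, where FAT4 is then no longer called. That setting also gave 8 higher of the further targets in the clone, without F3 and DOCK5, and 8 higher of the Hippo regulators, without WWC2. With a pseudocount of 32 the Hippo regulators past 2-fold in either direction numbered 7 in the clone, against 11 in the deposited values. The counts at other folds changed with the threshold itself, and those under a higher floor with fewer genes tested. Those with dim values set to the floor changed where the dimmer value of a called gene lay under it. For the pseudocount the cause was not tested. Of 1381 recomputed gene differences 1370 moved by under 1.5-fold, and 0 called values changed sign. Here too a changed floor, and the mean of probes for genes with 1 probe, could not move a difference. No paired analysis was possible because each group holds 1 array, and no array could be left out for the same reason. Signal near the floor limits ANKRD1, FAT4 and the clone control values of TGFB2 and RBMS3.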

Other observations

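Among the 16 further targets, 11 had a promoter window and 4 of these, FOXF2, NUAK2, PTPN14 and TGFB2, held a GGAATG match, where 16.7% of all genes with a window did. NUAK2, one of the 2 targets that were lower in the clone, had 2 matches, and TGFB2, the target furthest above control, had 1. RBMS3, IGFBP3 and CCDC80 had windows without a match. For the Hippo regulators the count was 4 of 24 genes with a window, a share equal to that of all genes.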
